A study of Mus musculus with 14 samples.

Results

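Expression of 10 genes of the MHC class I pathway and the immunoproteasome was followed in lung and in gastrocnemius, a calf muscle, of mice in a lung tumour model. The genes were taken by symbol and made up 10 of the 55416 genes listed for each library. All 10 were found and all 10 passed the filter on low counts in both tissues. They fall into 3 roles. The class I molecule itself is covered by B2m, H2-K1, H2-D1, H2-Q6 and H2-Q7, peptide transport and loading by Tap1 and Tapbp, and peptide cutting by Psmb8, Psmb9 and Psmb10.

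RNA was sequenced from male C57BL/6 mice (C57BL/6NCrlOri). In the model used, cells of a line named KrasIKKaL are placed in the airways through the trachea. The protocol gives the mice an age of 6 to 8 weeks. It is not stated to be their age when tissue was collected. The 14 libraries fall into 4 groups by title: tumour-bearing muscle (TB, n = 3), control muscle (CON, n = 3), tumour-bearing lung (TB, n = 5) and control lung (CON, n = 3). TB and CON are read here as tumour-bearing and control, and the sources used here do not give what control mice received. The labels name no transgene, drug or other allele in the mice. Nor do they tie each library to an animal of its own, so the p-values reflect the spread among these libraries alone, part of which may be technical.

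MHC class I molecules show short peptides on the cell surface, where CD8 T cells read them and natural killer cells sense their presence. The peptides are cut in the cytosol by the proteasome, carried into the endoplasmic reticulum by the TAP transporter and fitted into a heavy chain paired with beta-2 microglobulin. Interferon-gamma is known to raise most genes of this route and to bring in the immunoproteasome, in which the catalytic subunits encoded by Psmb9, Psmb10 and Psmb8 take the places of those encoded by Psmb6, Psmb7 and Psmb5. Skeletal muscle fibres are known for low class I levels at rest, and class I on fibres is a feature of inflammatory muscle disease.

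Depth ran from 32476212 to 44169437 counts in muscle libraries and from 47947379 to 61087330 in lung libraries. The tissue labels were checked on marker genes. On the TPM scale, a transcript abundance divided by length and scaled to a common total per library, the summed level of 8 muscle fibre genes lay between 64657 and 112569 TPM in muscle and between 4.98 and 27.4 TPM in lung. The summed level of 9 lung epithelial genes was 838 to 5589 TPM in tumour-bearing lung and 150904 to 159158 TPM in control lung, and at most 3.79 TPM in muscle, where the surfactant genes Sftpc and Sftpa1 were listed at 0. This sum was thus far lower in tumour-bearing than in control lung libraries, though not every gene of the list fell. Of the 9 genes, 7 were lower and 2 higher in tumour-bearing lung past an adjusted p of 0.05 in edgeR (log2 changes of -6.34 to 3.26). The shares over all genes tested in lung were 29.3% lower and 30.4% higher. The labels do not say how the tissue was sampled.

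On the TPM scale B2m and H2-K1 had the highest mean levels of the 10 genes in every group. The order differs in counts, which are not divided by length. H2-D1 had more summed counts than H2-K1 in every group, such as 6365 against 5939 in control muscle and 356256 against 309380 in tumour-bearing lung. Its lower place in TPM thus depends on the length used. In TPM, which allow genes to be compared, B2m, the light chain shared by all class I molecules, averaged 148 ± 41.6 TPM in tumour-bearing muscle and 161.7 ± 30.2 TPM in control muscle (SD, n = 3 each). In lung it averaged 1883 ± 1167 TPM in tumour-bearing (n = 5) and 2162 ± 396 TPM in control libraries (n = 3). H2-K1, a classical heavy chain that presents peptides to CD8 T cells, had 91.0 ± 20.4 TPM in tumour-bearing muscle and 115 ± 27.9 TPM in control muscle. Its levels in lung were 2181 ± 1577 TPM with tumour and 1612 ± 337 TPM in controls, so that H2-K1 and B2m could not be ranked against each other beyond their spread in either lung group.

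The other 8 genes lay lower in TPM, and their order differed between groups. H2-D1, the second classical heavy chain of this strain, had 25.6 ± 3.90 TPM in tumour-bearing muscle and 24.3 ± 2.98 TPM in control muscle. In control muscle it stood beside Psmb10 at 27.9 ± 4.68 TPM, and the 2 ranges overlapped. In tumour-bearing muscle Psmb10, the trypsin-like subunit of the immunoproteasome, had 8.43 ± 4.65 TPM and lay below every H2-D1 value. Tapbp, or tapasin, which holds the heavy chain to the TAP transporter while peptides are exchanged, came next with 6.50 ± 0.633 TPM in tumour-bearing and 10.8 ± 2.99 TPM in control muscle. The last 5 places in tumour-bearing muscle were taken by Psmb8 (2.35 ± 0.951 TPM), H2-Q6 (0.977 ± 0.0666), Psmb9 (0.730 ± 0.217), H2-Q7 (0.680 ± 0.0100) and Tap1 (0.620 ± 0.0520), the last 4 of which overlapped their neighbours. Control muscle held 5.70 ± 0.782 TPM of Psmb8, 2.39 ± 0.251 of H2-Q6, 3.04 ± 0.276 of Psmb9, 1.57 ± 0.295 of H2-Q7 and 0.767 ± 0.0379 of Tap1. Tap1, one chain of the peptide transporter, was thus the lowest of the 10 in both muscle groups.

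In TPM every lung library lay above every muscle library for each of the 10 genes. Psmb10, for example, averaged 120 ± 62.8 TPM in tumour-bearing and 92.7 ± 10.4 TPM in control lung, and Psmb8 had 109 ± 107 TPM with tumour and 70.1 ± 8.36 TPM in controls. The lowest places in tumour-bearing lung were taken by H2-Q7 (14.8 ± 13.8 TPM) and H2-Q6 (21.95 ± 26.04 TPM), and those in control lung by Tap1 (24.5 ± 7.94 TPM) and Psmb9 (36.8 ± 7.95 TPM). The spread differed sharply between the lung groups. The highest tumour-bearing library held from 3.61 times (Tapbp) to 19.5 times (H2-Q6) the TPM of the lowest, whereas in control lung that ratio did not exceed 1.76 (Tap1).

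**Figure D1:**
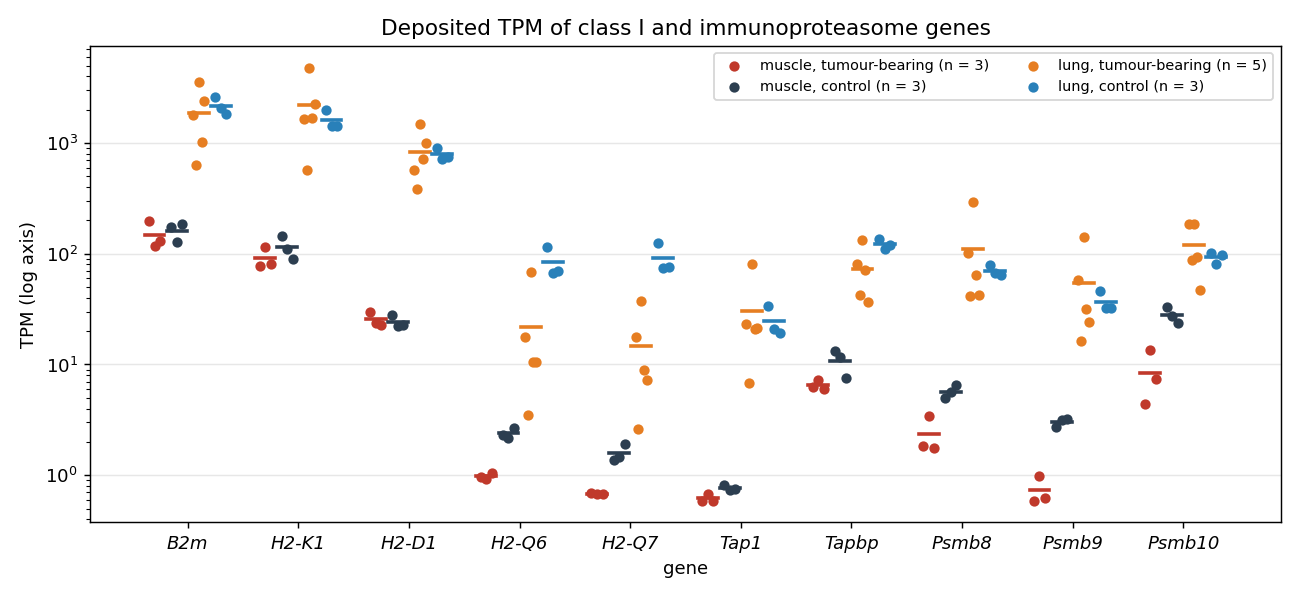
Deposited TPM (log axis) of the 10 genes, with 1 point per library and a bar at the mean of each group. Both lung groups lie above both muscle groups for each gene, and the tumour-bearing lung libraries spread most, from 3.47 to 67.7 TPM for H2-Q6.

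Sequence before the transcription start is shown for the heavy chains and B2m, which share a motif, and for the immunoproteasome genes Psmb8 and Psmb9. Both fell in muscle, as did H2-Q6, H2-Q7 and Psmb10. The Psmb10 window, which held no match to any motif described below, is not printed. RefSeq promoter windows on mouse build GRCm38.p6, 250 bases before to 50 after a start, were found for 10 of the 10 genes, with a second start for H2-K1. Of the 10 genes, 8 lie on chromosome 17, B2m on chromosome 2 and Psmb10 on chromosome 8. The 250 bases before the start are printed 5′ to 3′ on the gene's own strand, and capitals mark matches, on either strand, to the interferon-stimulated response element core (GAAA, any 2 bases, GAAA), the gamma-activated sequence (TTC, any 3 bases, GAA) or an NF-kappaB motif (GGG, any 2 bases, TT, any base, CC). The stretches are chr17:34000348-34000597 (minus strand) for H2-K1, chr17:35262844-35263093 (plus) for H2-D1, chr17:35424600-35424849 (plus) for H2-Q6 and chr17:35438905-35439154 (plus) for H2-Q7. They are chr2:122147437-122147686 (plus) for B2m, chr17:34197945-34198194 (plus) for Psmb8 and chr17:34187331-34187580 (minus) for Psmb9.
H2-K1: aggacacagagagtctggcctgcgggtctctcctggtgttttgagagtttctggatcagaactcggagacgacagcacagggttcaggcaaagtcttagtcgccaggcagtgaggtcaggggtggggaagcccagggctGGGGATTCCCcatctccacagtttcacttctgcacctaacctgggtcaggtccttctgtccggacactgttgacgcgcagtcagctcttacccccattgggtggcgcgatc
H2-D1: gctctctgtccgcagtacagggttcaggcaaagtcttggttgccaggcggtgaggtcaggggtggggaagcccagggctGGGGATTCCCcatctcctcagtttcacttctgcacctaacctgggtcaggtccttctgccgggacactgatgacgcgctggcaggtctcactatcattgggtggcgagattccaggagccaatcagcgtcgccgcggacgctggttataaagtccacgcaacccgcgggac
H2-Q6: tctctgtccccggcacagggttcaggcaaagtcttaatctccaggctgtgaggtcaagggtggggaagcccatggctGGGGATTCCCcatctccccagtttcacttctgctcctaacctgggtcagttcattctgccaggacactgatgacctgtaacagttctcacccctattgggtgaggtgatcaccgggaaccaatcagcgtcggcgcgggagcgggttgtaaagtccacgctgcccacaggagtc
H2-Q7: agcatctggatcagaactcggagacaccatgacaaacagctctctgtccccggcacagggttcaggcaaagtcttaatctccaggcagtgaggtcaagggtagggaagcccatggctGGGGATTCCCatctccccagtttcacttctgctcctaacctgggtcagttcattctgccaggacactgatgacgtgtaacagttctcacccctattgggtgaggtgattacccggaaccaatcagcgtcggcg
B2m: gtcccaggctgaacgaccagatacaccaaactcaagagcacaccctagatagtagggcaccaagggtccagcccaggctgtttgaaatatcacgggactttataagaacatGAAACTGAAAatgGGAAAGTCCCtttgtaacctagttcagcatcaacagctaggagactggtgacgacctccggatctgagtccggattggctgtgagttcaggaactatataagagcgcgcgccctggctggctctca
Psmb8: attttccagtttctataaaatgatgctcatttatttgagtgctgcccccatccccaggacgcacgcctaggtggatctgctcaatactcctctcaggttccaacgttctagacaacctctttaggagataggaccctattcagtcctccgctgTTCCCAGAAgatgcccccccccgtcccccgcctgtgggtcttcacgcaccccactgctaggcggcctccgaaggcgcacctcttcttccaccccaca
Psmb9: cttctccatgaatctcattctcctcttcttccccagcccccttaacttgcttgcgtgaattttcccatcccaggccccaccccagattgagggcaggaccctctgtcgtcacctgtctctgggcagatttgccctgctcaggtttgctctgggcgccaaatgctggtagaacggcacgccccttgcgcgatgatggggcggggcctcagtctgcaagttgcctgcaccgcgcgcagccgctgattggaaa
The NF-kappaB motif was found in 5 of the 10 genes, the 4 heavy chains and B2m, and in 4.79% of the 32851 promoter windows of the table. The 4 heavy chains carried the same 10 letters, GGGGATTCCC, beginning 111 bases before the printed H2-K1 start, 171 before that of H2-D1, 173 before that of H2-Q6 and 133 before that of H2-Q7. The interferon-stimulated response element core, in the exact letters used here, was found only in B2m, 139 bases before its start, against 3.44% of all windows. The gamma-activated sequence was found only in Psmb8, 97 bases before its start, against 8.30% of all windows. CCAAT, left in lower case, was found in the windows of 8 of the 10 genes and of 37.4% of all genes' windows, and neither Psmb8 nor Psmb10 had it. Tap1 and Psmb9 are transcribed away from each other from starts 226 bases apart, so that their 300-base windows share 275 bases. These letter matches describe the windows and are no evidence of binding. Exact letters also miss sites that differ from them slightly, so a window without a match may still hold such an element.

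Whether tumour-bearing mice differ from controls was asked first in muscle, the tissue in which the series sought targets for muscle loss and for immune side effects on muscle. All 3 immunoproteasome genes and both H2-Q genes fell, and no gene of the 10 rose. B2m, H2-K1 and H2-D1, which make up most class I transcripts, did not pass the test. Of the 10 genes, 5 were lower past an adjusted p of 0.05 in edgeR's quasi-likelihood test, beside 6.75% of the 14373 genes tested, and 0 were higher, beside 8.53% (15.3% in either direction). At an unadjusted p under 0.05 the counts were 6 lower and 0 higher, beside 35.7% of genes in either direction, and DESeq2 called 5 lower and 0 higher. With upper-quartile scaling, calls over all genes split into 760 higher and 1079 lower, against 1226 and 970 with the TMM scaling used here. The median log2 fold change, tumour-bearing over control, was -1.11 over the 10 genes and -0.03 over all genes tested. Values below are CPM, counts scaled to TMM-adjusted library sizes, listed in the order of the replicate numbers. In bulk tissue, fewer cells of a type and less RNA per cell cannot be told apart.

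Psmb9, which takes the place of the caspase-like subunit of the standard proteasome, had 0.507, 1.00 and 0.463 CPM in tumour-bearing muscle, against 2.06, 2.49 and 5.28 CPM in control muscle. These rest on 12 to 39 counts per tumour-bearing library and 83 to 139 per control library, and the groups did not overlap. The change was -2.30 ± 0.50 in log2 (SE), or 4.91-fold lower (adjusted p = 0.0226, edgeR), the largest of the 10. Psmb8, the chymotrypsin-like subunit, had 1.66, 4.43 and 3.13 CPM in tumour-bearing muscle, against 5.39, 8.78 and 14.1 CPM in control muscle. All 3 tumour-bearing libraries lay below the lowest control, and Psmb8 was 3.07-fold lower (log2 -1.62 ± 0.46, adjusted p = 0.0462, edgeR). Psmb10 had 2.03, 6.20 and 4.56 CPM in tumour-bearing muscle, against 11.4, 12.9 and 14.7 CPM in control muscle. It was 3.05-fold lower with no overlap (log2 -1.61 ± 0.40, adjusted p = 0.0325, edgeR). In CPM its control libraries were the closest together of the 3 subunits. In TPM they were the furthest apart, with the highest at 1.40 times the lowest, against 1.32 for Psmb8 and 1.19 for Psmb9.

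H2-Q6 and H2-Q7 encode nonclassical class I heavy chains of the Qa-2 group, which in mice can be anchored in the membrane by a lipid. H2-Q6 had 1.78, 2.08 and 3.74 CPM in tumour-bearing muscle, against 4.43, 6.03 and 9.998 CPM in control muscle. It was 2.697-fold lower (log2 -1.43 ± 0.42, adjusted p = 0.0486, edgeR), with replicate 3 highest in each group. H2-Q7 had 1.28, 1.11 and 1.35 CPM in tumour-bearing muscle, against 2.11, 2.998 and 4.83 CPM in control muscle. The 3 tumour-bearing values were nearly equal and all below the lowest control, and H2-Q7 was 2.65-fold lower (log2 -1.40 ± 0.39, adjusted p = 0.0424, edgeR). Both lay near the threshold. H2-Q6 did not pass with RLE size factors (adjusted p = 0.05004, edgeR), H2-Q7 did not with limma-voom (adjusted p = 0.0560), and neither they nor Psmb8 did in 1 fit of all 14 libraries (adjusted p = 0.188, 0.161 and 0.0783 for H2-Q6, H2-Q7 and Psmb8, edgeR).

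The H2-Q values carry an added uncertainty because the genes are near copies. Of all 100-base stretches of their protein-coding transcripts in GENCODE vM21, 10.8% of those of H2-Q6 and 17.2% of those of H2-Q7 were found in another gene as well, 8.36% and 9.34% in each other. The matching share was 4.09% for H2-D1, 0.0972% for Tapbp and 0 for the other 6 genes. With the counts of H2-Q6 and H2-Q7 summed, the drop in muscle was -1.42 in log2 (adjusted p = 0.0396, edgeR). With all listed heavy chain genes summed, which lets H2-K1 and H2-D1 dominate, it was -0.31 (adjusted p = 0.463, edgeR).

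Tapbp had 13.8, 20.9 and 26.8 CPM in tumour-bearing muscle, against 31.2, 41.3 and 35.7 CPM in control muscle. The groups did not overlap, but the difference of -0.82 ± 0.30 in log2 missed the threshold (adjusted p = 0.0915, edgeR). Over all 10 genes, 6 had tumour-bearing libraries wholly below control libraries, beside 22% of genes tested, and 0 had them wholly above, beside 21.1% (43.1% in either direction). Tap1 had 1.38, 2.19 and 2.28 CPM in tumour-bearing muscle, against 2.02, 2.76 and 3.69 CPM in control muscle, which overlapped (log2 -0.53 ± 0.37, adjusted p = 0.314, edgeR). On the TPM scale the Tap1 groups separated, at 0.59 to 0.68 TPM with tumour and 0.74 to 0.81 TPM in controls.

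The abundant class I genes showed no difference beyond their spread. B2m had 126, 91.3 and 163 CPM in tumour-bearing muscle, against 115, 123 and 243 CPM in control muscle (log2 -0.34 ± 0.37, adjusted p = 0.522, edgeR). H2-K1 had 34.2, 48.2 and 56.2 CPM in tumour-bearing muscle, against 52.1, 57.0 and 61.3 CPM in control muscle (log2 -0.30 ± 0.27, adjusted p = 0.445, edgeR). H2-D1 had 52.1, 51.2 and 76.3 CPM in tumour-bearing muscle, against 49.8, 58.0 and 80.3 CPM in control muscle (log2 -0.066 ± 0.29, adjusted p = 0.887, edgeR), and its sign turned on log2(TPM + 1), to 0.072. All 3 had overlapping groups, and their errors do not show that the 3 genes were unchanged.

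**Figure D2:**
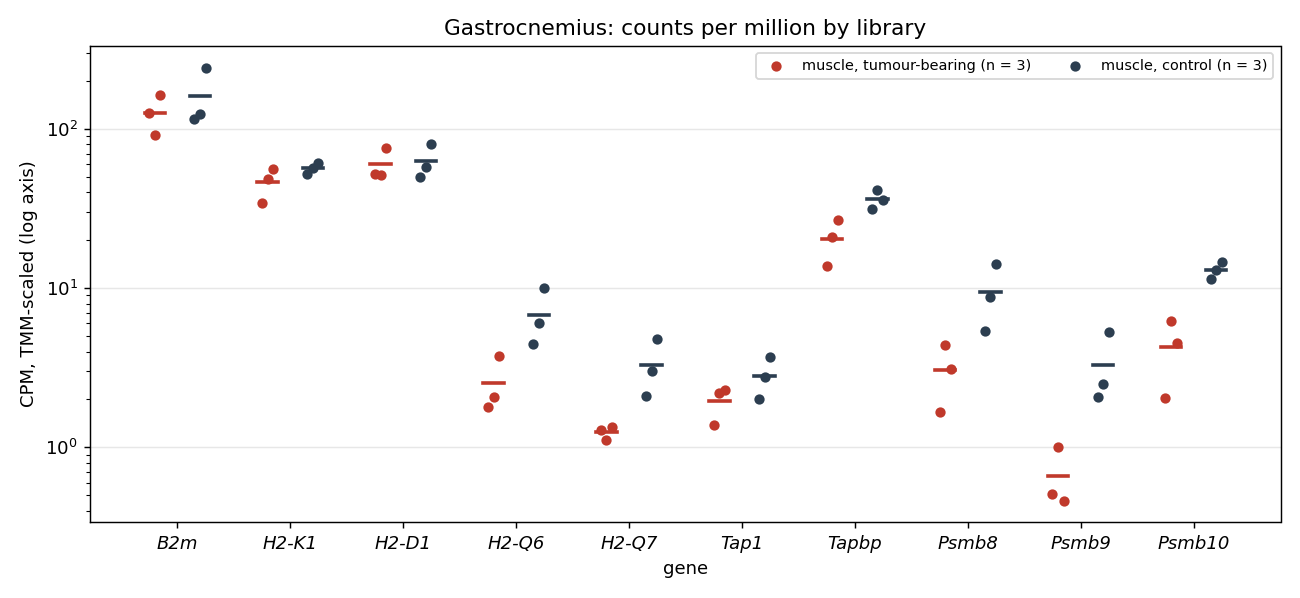
TMM-scaled CPM (log axis) of the 10 genes in gastrocnemius, tumour-bearing left of control, with 1 point per library and a bar at the group mean. The groups separate for H2-Q6, H2-Q7, Tapbp, Psmb8, Psmb9 and Psmb10 and overlap for B2m, H2-K1, H2-D1 and Tap1.

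Control muscle replicate 3 was the highest of its group for 9 of the 10 genes in CPM and control replicate 1 the lowest for 10 of 10. On the TPM scale the order turned, with the 10 genes summing to 404, 312 and 343 TPM in control replicates 1, 2 and 3, and H2-K1, H2-D1, Tap1, Tapbp and Psmb10 highest in replicate 1. Each of the 5 calls was lost when any 1 of the 3 controls was left out, with adjusted p-values of 0.0554 to 0.181 (edgeR), while the log2 changes stayed between -1.04 and -2.54. The number of genes called over the whole table also dropped then, to 243 without control replicate 1, 141 without replicate 2 and 106 without replicate 3, against 2196 with all 6 libraries. Leaving out tumour-bearing replicate 1, 2 or 3 left 1, 3 and 1 of the 10 genes called, with Psmb10 called without replicate 1, the 3 immunoproteasome genes without replicate 2 and H2-Q6 without replicate 3, and 1432, 4513 and 1129 genes over the whole table. On log2(TPM + 1) with limma, 0 of the 10 genes passed (adjusted p = 0.0605 to 0.182 for the 5), and 415 genes did over the whole table. That scale shrinks changes of low genes. The log2 change of Psmb10, however, stayed between -1.85 and -1.58 under every alternative that kept all libraries. The cause of the lost calls was not tested.

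Of the 3 standard catalytic subunits, 1 rose in muscle and 2 did not pass, beside 8.53% of all genes tested in muscle that were higher. Psmb7, whose place Psmb10 takes, had 208, 211 and 265 CPM in tumour-bearing muscle, against 106, 105 and 91.0 CPM in control muscle. It rose 2.27-fold with no overlap (log2 1.18, adjusted p = 0.0217, edgeR). Psmb5 and Psmb6, the standard counterparts of Psmb8 and Psmb9, also had every tumour-bearing library above every control but missed the threshold (log2 0.79, adjusted p = 0.0602, and log2 0.77, adjusted p = 0.102, edgeR). The ratio of each immunoproteasome subunit to its counterpart was computed from TPM within each library.

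Psmb10 over Psmb7 was 0.0201, 0.0742 and 0.0514 in tumour-bearing muscle, against 0.302, 0.375 and 0.497 in control muscle, a 9.02-fold lower ratio. Psmb9 over Psmb6 was 0.00202 to 0.00324 in tumour-bearing muscle and 0.0131 to 0.0254 in control muscle, 7.58-fold lower. Psmb8 over Psmb5 was 0.0136 to 0.0239 in tumour-bearing muscle and 0.0555 to 0.153 in control muscle, 4.58-fold lower. None of the 3 ratios overlapped between groups, and each gave a 2-sided exact permutation p of 0.1, the smallest that 3 against 3 libraries allow (0.2 after adjustment over the 6 ratio tests of both tissues). In lung the ratios spread over the control range. Psmb8 over Psmb5 was 1.11, 0.234, 3.65, 0.540 and 0.576 in tumour-bearing lung, against 0.852, 0.697 and 0.600 in control lung (exact permutation p = 0.929). Psmb9 over Psmb6 ran from 0.0523 to 0.547 in tumour-bearing and from 0.180 to 0.244 in control lung (exact permutation p = 0.714), and Psmb10 over Psmb7 from 0.323 to 1.36 in tumour-bearing and from 0.893 to 1.05 in control lung (exact permutation p = 0.321).

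**Figure D3:**
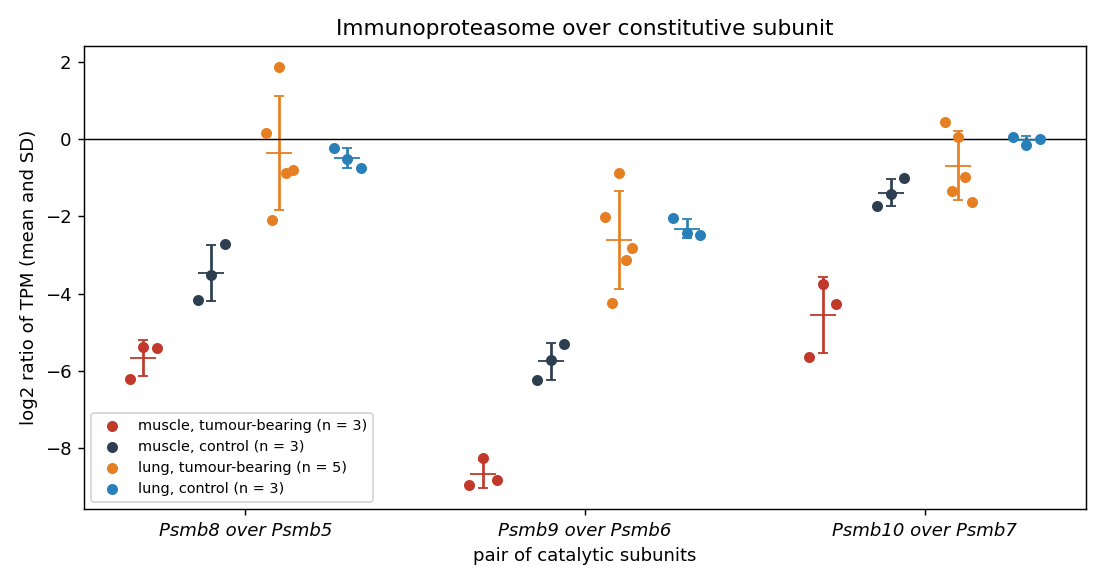
Log2 ratio of TPM of each immunoproteasome subunit to the standard subunit whose place it takes, with 1 point per library, the group mean and SD. In muscle the tumour-bearing libraries lie below all controls for the 3 pairs, and in lung the groups overlap.

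Other genes of the route in muscle did not move as a block. Psme1, the alpha subunit of the 11S activator that caps proteasomes, fell 2.46-fold, with 9.19, 17.5 and 18.8 CPM in tumour-bearing muscle, against 30.6, 34.6 and 46.9 CPM in control muscle (log2 -1.30 ± 0.34, adjusted p = 0.0366, edgeR). Its partner Psme2 was also lower in every tumour-bearing library but missed the threshold (log2 -0.81, adjusted p = 0.141, edgeR). Psme3, a nuclear relative of both, rose (log2 1.25, adjusted p = 0.0364, edgeR), as did the proteasome inhibitor Psmf1, named after its values were seen (log2 1.06, adjusted p = 0.0464, edgeR). Of 9 activator and assembly genes, 2 thus rose, 1 fell and 6 did not pass, beside 8.53% of all genes tested in muscle that were higher and 6.75% that were lower.

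Of 10 further loading and trimming genes tested in muscle, 1 rose and 9 did not pass. The rising gene stands beside 8.53% of all genes tested in muscle that were higher. It was Uggt1, a glucosyltransferase of glycoprotein quality control (log2 1.23, adjusted p = 0.0458, edgeR). The second transporter chain Tap2 (log2 -0.57, adjusted p = 0.173), the tapasin relative Tapbpl (-0.36, adjusted p = 0.466), the trimming peptidase Erap1 (0.18, adjusted p = 0.741) and the chaperone Hspa5 (0.85, adjusted p = 0.127, all edgeR) did not pass. Of 12 other class I heavy chain genes, 6 were tested and 1 fell, beside 6.75% of all genes tested in muscle that were lower. This was H2-T24, at 0.148 ± 0.124 CPM in tumour-bearing and 0.752 ± 0.311 CPM in control muscle (log2 -2.26, adjusted p = 0.0493, edgeR). H2-M3, H2-Q4 and H2-T23 had log2 changes of -1.23, -0.66 and -0.41 that did not pass (adjusted p = 0.0910, 0.253 and 0.424, edgeR). The class I-like genes Hfe and Procr, 2 of 4 tested in their list, did not pass either (log2 -1.09, adjusted p = 0.0623, and 0.63, adjusted p = 0.193, edgeR).

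Among 20 regulators of class I genes in muscle, 1 fell and 19 did not pass, beside 6.75% of all genes tested in muscle that were lower. Socs1, a feedback inhibitor of cytokine signalling that interferons induce, fell 5.82-fold (log2 -2.54 ± 0.61, adjusted p = 0.0297, edgeR). Nlrc5, the transactivator of class I promoters, had 0.223, 0.849 and 0.386 CPM in tumour-bearing muscle, against 1.10, 1.47 and 1.79 CPM in control muscle, apart but short of the threshold (log2 -1.57 ± 0.54, adjusted p = 0.0773, edgeR). Irf7 (log2 -1.52, adjusted p = 0.0694, edgeR) likewise lay lower in every tumour-bearing library, and Irf1 overlapped (log2 -0.45, adjusted p = 0.463, edgeR). Ifng, the gene of interferon-gamma, was too low to test, with 1 count in 1 control muscle library and 0 counts elsewhere in muscle. Cd8a, a chain of the T cell co-receptor for class I, also had 1 count in 1 control library and 0 counts elsewhere. A count of 0 allows up to 3 counts, or 0.0679 to 0.0924 CPM in a muscle library, and covers counting error only.

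Marker genes of other cell types also moved in muscle. Beside the counts below stand 6.75% of all genes tested in muscle that were lower and 8.53% that were higher. The only T and NK cell gene of 8 that could be tested, Cd3e, fell (log2 -4.52, adjusted p = 0.0190, edgeR), and the 8 genes summed to 0.15 to 0.41 TPM in tumour-bearing and 0.68 to 0.96 TPM in control muscle, with Ncr1 at 0 in all 6 libraries. The only B cell gene of 5 tested, Cd79b, fell as well (log2 -2.71, adjusted p = 0.0211, edgeR), with sums of 0.06 to 0.28 TPM in tumour-bearing and 0.56 to 0.79 TPM in control muscle. Of 4 dendritic cell genes tested 1 fell, with sums over 6 genes of 0.53 to 1.05 TPM in tumour-bearing and 1.24 to 1.92 TPM in control muscle. Fibroblast genes fell in 6 of 8 cases, with sums of 182 to 329 TPM in tumour-bearing and 314 to 353 TPM in control muscle, and endothelial genes in 1 of 8, with sums of 61.3 to 97.2 TPM in tumour-bearing and 101 to 115 TPM in control muscle. Genes of all leukocytes did not pass in 4 of 4 cases, at 8.64 to 19.5 TPM in tumour-bearing and 10.1 to 13.1 TPM in control muscle. Neutrophil genes were higher in 4 of 4 tested, at 9.03 to 13.6 TPM in tumour-bearing and 1.58 to 2.08 TPM in control muscle. Of 4 alveolar macrophage genes tested 3 rose, though the sums over 6 genes overlapped, at 192 to 282 TPM in tumour-bearing and 179 to 219 TPM in control muscle. Siglecf was at 0 in all 6 libraries and Marco at 0 in all controls. The sums thus rest on other genes of the list, and the list is no clear mark of that cell type in muscle. Of 7 macrophage and monocyte genes tested 1 rose and 6 did not pass, with sums of 25.8 to 63.4 TPM in tumour-bearing and 29.1 to 42.8 TPM in control muscle. The part of these cell types in the levels of the class I and immunoproteasome genes was not tested.

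In lung the picture differed. Of the 10 genes 1 fell, H2-Q7, beside 29.3% of the 19300 genes tested that were lower, and 0 rose, beside 30.4% that were higher. The same counts, 1 lower and 0 higher, came from an unadjusted p under 0.05, which 63.8% of genes passed, and from DESeq2. The median log2 change was 0.55 over the 10 genes and 0.07 over all genes tested, and 7 of the 10 were above 0. On log2(TPM + 1), where calls over all genes split into 3594 higher and 7994 lower against 5862 and 5651 here, 4 of the 10 were above 0. The 1 call among 10 lay below the background share in this tissue, where 59.7% of genes passed, and the 5 tumour-bearing libraries differed widely among themselves.

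H2-Q7 had 25.0, 3.21, 49.98, 12.1 and 12.0 CPM in tumour-bearing lung, against 145, 89.9 and 89.8 CPM in control lung. Every tumour-bearing library lay below every control, and the change was 5.28-fold lower (log2 -2.40 ± 0.68, adjusted p = 0.0132, edgeR). It was the only gene of the 10 with no overlap in lung, beside 32.1% of genes tested with tumour-bearing libraries wholly below controls, 30.9% wholly above and 63% in either direction. Without control replicate 1 its adjusted p was 0.0527. H2-Q6 had 30.4, 6.19, 113, 19.0 and 20.4 CPM in tumour-bearing lung, against 147, 89.3 and 91.6 CPM in control lung. Only replicate 3 reached the control range, and the change missed the threshold (log2 -1.54 ± 0.74, adjusted p = 0.103, edgeR). Without that library it was -2.52 (adjusted p = 0.00226, edgeR). With the counts of H2-Q6 and H2-Q7 summed the change was -1.90 (adjusted p = 0.0447, edgeR), and with all listed heavy chains summed it was 0.45 (adjusted p = 0.400, edgeR).

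The classical class I genes and B2m did not pass in lung. H2-K1 had 871, 345, 2292, 970 and 1405 CPM in tumour-bearing lung, against 792, 614 and 649 CPM in control lung (log2 0.78 ± 0.50, adjusted p = 0.207, edgeR). Replicate 2 alone lay below the controls, and without it the change was 1.04 (adjusted p = 0.0328, edgeR). H2-D1 had 916, 644, 2331, 1204 and 1784 CPM in tumour-bearing lung, against 1050, 886 and 921 CPM in control lung (log2 0.53 ± 0.39, adjusted p = 0.269, edgeR, and -0.067 on log2(TPM + 1)). B2m had 1109, 398, 2074, 649 and 1627 CPM in tumour-bearing lung, against 1167, 961 and 842 CPM in control lung (log2 0.24 ± 0.48, adjusted p = 0.686, edgeR, and -0.44 on log2(TPM + 1)). For H2-D1 and B2m tumour-bearing libraries thus lay on both sides of the controls, and the sign depended on the scale.

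Tap1 and Tapbp, the transport and loading genes, also did not pass in lung. Tap1 had 53.7, 16.2, 177, 50.3 and 56.3 CPM in tumour-bearing lung, against 56.8, 36.9 and 35.5 CPM in control lung (log2 0.72 ± 0.63, adjusted p = 0.347, edgeR, and -0.059 on log2(TPM + 1)). Tapbp had 174, 95.8, 273, 160 and 89.6 CPM in tumour-bearing lung, against 192, 176 and 180 CPM in control lung (log2 -0.20 ± 0.34, adjusted p = 0.631, edgeR). In both genes replicate 3 lay above all controls in CPM. For Tapbp this did not hold in TPM, where replicate 3 had 133.2 TPM and control replicate 1 had 135.2 TPM.

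The immunoproteasome genes were not lower in lung as they were in muscle. Psmb8 had 96.7, 41.1, 244, 61.3 and 42.6 CPM in tumour-bearing lung, against 48.2, 43.9 and 42.6 CPM in control lung (log2 1.11 ± 0.58, adjusted p = 0.129, edgeR). Psmb9 had 37.4, 9.58, 93.6, 20.1 and 18.0 CPM in tumour-bearing lung, against 30.6, 20.7 and 20.9 CPM in control lung (log2 0.57 ± 0.65, adjusted p = 0.475, edgeR). Psmb10 had 88.5, 39.2, 91.5, 51.4 and 25.7 CPM in tumour-bearing lung, against 39.9, 35.3 and 38.6 CPM in control lung (log2 0.64 ± 0.39, adjusted p = 0.187, edgeR). All 3 overlapped the controls, with replicate 3 highest, and without replicate 3 Psmb9 was at -0.17. Without replicate 5 Psmb10 passed the threshold at 0.87 (adjusted p = 0.0406, edgeR).

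**Figure D4:**
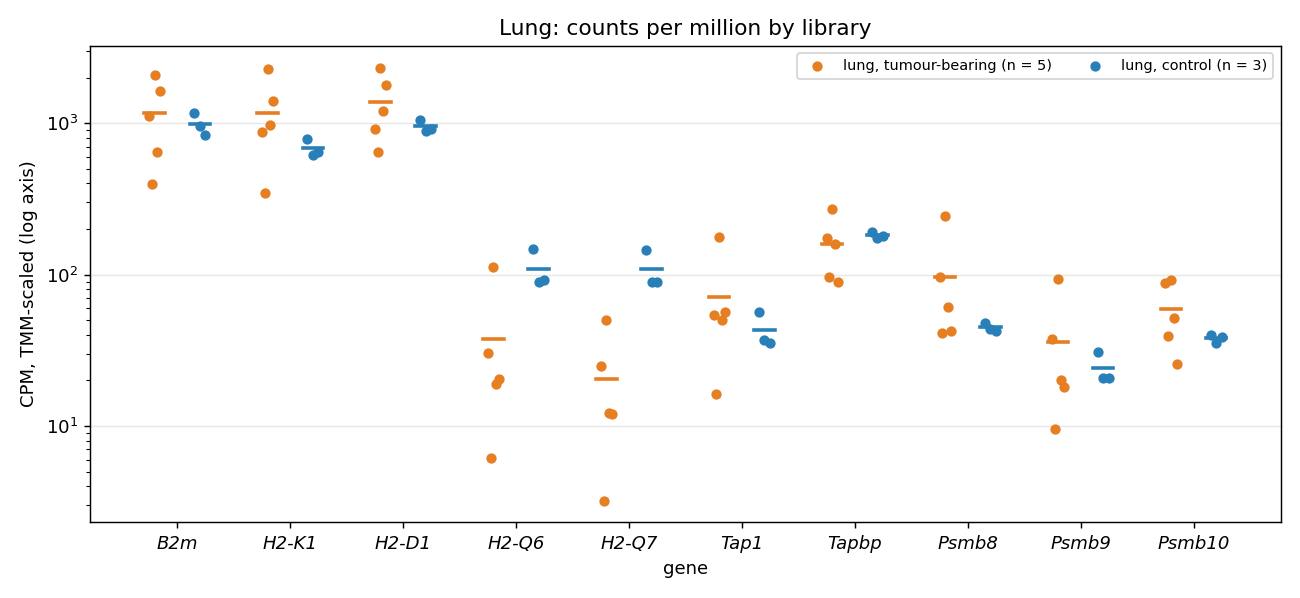
TMM-scaled CPM (log axis) of the 10 genes in lung, tumour-bearing left of control, with 1 point per library and a bar at the group mean. Control libraries lie close together, tumour-bearing libraries spread up to 18.2 times between lowest and highest (H2-Q6), and only H2-Q7 separates the groups.

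The order of the lung libraries was largely shared by the 10 genes. In TMM-scaled CPM tumour-bearing replicate 3 was highest for 10 of 10 and replicate 2 lowest for 8 of 10, with replicate 5 lowest for Tapbp and Psmb10. In TPM replicate 1 lay slightly above replicate 3 for Psmb10. Summed over the 10 genes, the 5 tumour-bearing libraries held 4490, 1793, 10798, 3704 and 5815 TPM and the 3 controls 6133, 4651 and 4467 TPM. Summed markers of endothelium, fibroblasts, B cells, dendritic cells, T and NK cells and all leukocytes lay lower in every tumour-bearing lung library. Beside the counts of marker genes below stand 29.3% of all genes tested in lung that were lower and 30.4% that were higher. Endothelial genes fell in 8 of 8 cases, with sums of 99.3 to 135 TPM in tumour-bearing and 1833 to 1890 TPM in control lung. B cell genes fell in 5 of 5, with sums of 0.68 to 5.82 TPM in tumour-bearing and 29.8 to 57.7 TPM in control lung. Dendritic cell genes fell in 5 of 6, at 2.58 to 11.1 TPM in tumour-bearing and 43.4 to 49.9 TPM in control lung. Genes of all leukocytes fell in 3 of 4, at 43.1 to 211 TPM in tumour-bearing and 365 to 437 TPM in control lung. T and NK cell genes fell in 2 of 8, at 5.45 to 28.3 TPM in tumour-bearing and 40.9 to 49.8 TPM in control lung. Fibroblast genes fell in 3 of 8, at 158 to 508 TPM in tumour-bearing and 593 to 668 TPM in control lung. The sums of 3 other lists overlapped between groups. Neutrophil genes rose in 2 and fell in 1 of 6, at 149.9 to 402 TPM in tumour-bearing and 241 to 525 TPM in control lung. Macrophage and monocyte genes rose in 1 and fell in 3 of 8, at 143.1 to 375 TPM in tumour-bearing and 268 to 279 TPM in control lung. Alveolar macrophage genes fell in 3 of 6, at 205 to 994 TPM in tumour-bearing and 674 to 1574.5 TPM in control lung. The part of these cell types in the lung values was not tested.

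Of the 3 standard catalytic subunits, 2 rose in lung. As a background for the counts in this paragraph, 30.4% of all genes tested in lung were higher and 29.3% lower. Psmb7 (2.50-fold, log2 1.32, adjusted p = 0.000297, edgeR) and Psmb6 (1.90-fold, log2 0.92, adjusted p = 0.00221, edgeR) passed, and Psmb5 did not (log2 0.59, adjusted p = 0.108, edgeR). Of 9 activator and assembly genes 7 rose, among them Pomp, an assembly chaperone (log2 1.13, adjusted p = 0.000235, edgeR), and Psmf1 (log2 1.03, adjusted p = 0.000518, edgeR). Psme1 and Psme2 missed the threshold (log2 0.38, adjusted p = 0.0699, and 0.48, adjusted p = 0.0727, edgeR). Of 10 loading and trimming genes 2 rose, Pdia3, the disulfide isomerase of the loading complex (log2 0.68, adjusted p = 0.0204, edgeR), and Ganab, a glucosidase subunit (log2 0.54, adjusted p = 0.0124, edgeR). Tap2 (log2 -0.90, adjusted p = 0.109), Erap1 (-0.53, adjusted p = 0.169) and Tapbpl (-0.15, adjusted p = 0.635, all edgeR) did not pass.

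Of 11 other heavy chain genes tested in lung, 3 fell and 8 did not pass, beside 29.3% of all genes tested in lung that were lower. H2-T24 had 1.60 ± 0.808 CPM in tumour-bearing (n = 5) and 17.6 ± 1.31 CPM in control lung (n = 3), 10.9-fold lower (adjusted p = 6.91e-05, edgeR). H2-Q1, barely detected at 0.0172 ± 0.0200 CPM in tumour-bearing and 0.215 ± 0.0409 CPM in control lung, and H2-M5, named after its values were seen, also fell (log2 -3.59, adjusted p = 0.00195, and -2.26, adjusted p = 0.00280, edgeR). H2-T23, which displays leader peptides of other class I chains to natural killer cells, and H2-Q4 did not pass (log2 0.59, adjusted p = 0.171, and -0.14, adjusted p = 0.863, edgeR). Among 6 class I-like genes 4 fell and 1 rose, beside 29.3% of all genes tested in lung that were lower and 30.4% that were higher. Mr1, which presents vitamin metabolites, fell (log2 -2.64, adjusted p = 0.000152, edgeR) and Procr, the endothelial protein C receptor, rose (log2 2.91, adjusted p = 0.000582, edgeR).

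Of 20 regulators in lung, 7 fell and 2 rose, beside 29.3% of all genes tested in lung that were lower and 30.4% that were higher. Nfkb1, an NF-kappaB subunit (log2 -0.76, adjusted p = 0.000662, edgeR), and Irf2, a repressor of interferon-responsive genes (log2 -0.95, adjusted p = 0.00525, edgeR), fell with no overlap. Nlrc5 (log2 -0.10, adjusted p = 0.910, edgeR) and Irf1 (log2 0.18, adjusted p = 0.698, edgeR) did not pass. Nlrc5 ran from 3.45 to 54.6 CPM in tumour-bearing lung and from 18.5 to 27.4 CPM in control lung, with its lowest value in replicate 2 and its highest in replicate 3. Ifng had 0.229, 0, 0.494, 0.0207 and 0.0979 CPM in tumour-bearing lung, against 0.895, 0.589 and 0.381 CPM in control lung (log2 -1.84 ± 0.93, adjusted p = 0.118, edgeR). Of 8 genes in a list of class I receptors and related natural killer cell receptors, 4 fell and 1 rose, beside the same shares of all genes. The natural killer cell receptor genes Klra8 and Klrc1 moved in opposite directions (log2 -6.40, adjusted p = 0.000155, and 4.64, adjusted p = 0.00103, edgeR), and Cd8a did not pass, at 0.238 to 8.64 CPM in tumour-bearing and 1.94 to 3.33 CPM in control lung (log2 0.0072, adjusted p = 0.995, edgeR).

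Whether the tumour-associated change differed between lung and muscle was tested as the interaction of tissue and tumour in 1 fit of all 14 libraries. It passed for the 3 immunoproteasome genes and for none of the other 7. All 3 were higher in lung relative to muscle, beside 16.6% of the 19834 genes tested, and 0 of the 10 were lower, beside 19%, with 35.6% of genes past the threshold in either direction (calls over all genes split into 3287 higher and 3770 lower, and into 2401 and 6624 on log2(TPM + 1)). An unadjusted p under 0.05, which 45% of genes had, gave the same 3, and DESeq2 also called 3. The difference of log2 changes, lung minus muscle, was 2.72 ± 0.83 for Psmb8 (adjusted p = 0.0199), 2.85 ± 0.94 for Psmb9 (adjusted p = 0.0289) and 2.24 ± 0.61 for Psmb10 (adjusted p = 0.0112, all edgeR, SE). The activator genes Psme1 and Psme2 passed in the same direction (1.66, adjusted p = 0.00254, and 1.27, adjusted p = 0.0323, edgeR). The standard subunits Psmb5, Psmb6 and Psmb7 had differences of -0.21, 0.16 and 0.14, none past the threshold (adjusted p = 0.736, 0.765 and 0.749, edgeR). The interaction of Psmb10 passed under every alternative and leave-one-out fit run (adjusted p = 0.00107 to 0.0304). That of Psmb8 was lost without control muscle replicate 3 or tumour-bearing muscle replicate 1 (adjusted p = 0.0585 and 0.0582, edgeR), and that of Psmb9 without either of those, tumour-bearing muscle replicate 3 or control lung replicate 2 or 3 (adjusted p = 0.0652 to 0.0854, edgeR). With limma-voom Psmb10 alone of the 3 passed (adjusted p = 0.0627 for Psmb8 and 0.159 for Psmb9). On log2(TPM + 1) Psmb8 and Psmb9 did not pass either (adjusted p = 0.189 and 0.155, limma), and on log2(TPM + 0.1) Psmb8 did not (adjusted p = 0.116, limma).

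For the class I and loading genes no difference between tissues was detectable. It was 1.08 ± 0.63 for H2-K1 (adjusted p = 0.198), 1.25 ± 0.81 for Tap1 (adjusted p = 0.252), 0.60 ± 0.52 for H2-D1 (adjusted p = 0.399), 0.62 ± 0.49 for Tapbp (adjusted p = 0.352) and 0.59 ± 0.65 for B2m (adjusted p = 0.528, all edgeR). On log2(TPM + 1) the differences of H2-D1, Tapbp and B2m turned negative. H2-Q6 and H2-Q7 had differences of -0.090 ± 0.99 (adjusted p = 0.997) and -0.997 ± 0.90 (adjusted p = 0.421, edgeR). On log2(TPM + 1) the H2-Q7 difference was -2.34 (adjusted p = 0.0331, limma). These wide errors do not show that the H2-Q genes changed alike in lung and muscle.

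**Figure D5:**
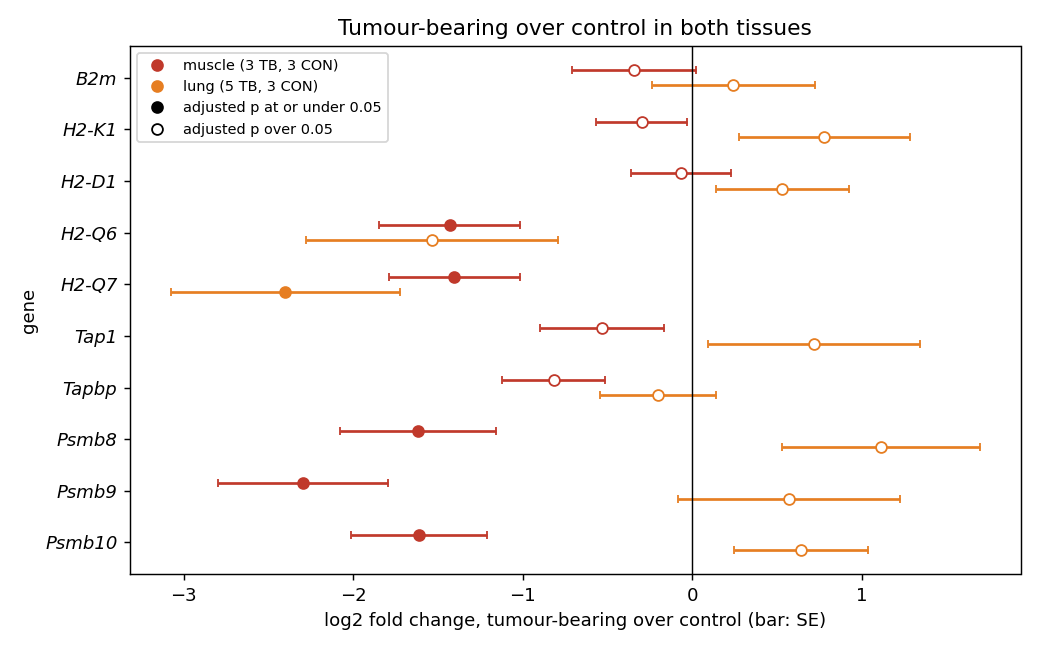
Log2 fold change of tumour-bearing over control for each gene, with bars of 1 SE, in muscle (3 and 3 libraries) and lung (5 and 3 libraries). Filled points passed an adjusted p of 0.05 and open points did not. Psmb8, Psmb9 and Psmb10 lie between -1.61 and -2.30 in muscle and between 0.57 and 1.11 in lung.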

How the data were processed

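Bulk RNA was measured in 14 libraries (MGIEasy RNA Directional kit, 100-base reads, per the labels). Trim Galore, STAR 2.7.9a and RSEM 1.3.3 are named in the submitters' processing notes. The sources used here give no settings, strand option or genome build, so only RefSeq promoter windows carry coordinates. The authors deposited expected counts, which are estimates (6.28% to 11.9% of values in a library were not whole), and TPM for 55416 Ensembl genes, of which 52083 matched a symbol.

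Expected counts were rounded and each tissue was tested in R 4.3.3 with edgeR 4.0.16 (TMM, filterByExpr, two-sided glmQLFTest), with Benjamini-Hochberg adjustment over all genes tested. SE is the absolute log2 change divided by the square root of F. Subunit ratios used exact permutation tests (scipy 1.17.1). RSEM splits reads among near copies. No 2 replicates were as close as sampling noise would make them (chi-square per degree of freedom 21.3 to 481), and the scripts were tested on simulated data. Alternatives covered scaling, DESeq2 1.42.0, limma 3.58.1 (voom and deposited TPM), filters, summed copies, a replicate block and libraries left out.

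The members and 19 other lists (148 genes) were chosen with earlier results of these data known. Named genes were the 10 members, 15 fixed genes and, of each other list, the 2 with the smallest unadjusted p in a tissue. Marker lists are given mainly by counts and sums, naming fewer genes than that rule takes, and 1 of the fixed genes is not reported here.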

Additional observations from a re-analysis of the deposited data

Results flagged for a closer look

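In tumour-bearing lung, replicate 3 stood apart from the other 4 libraries for 3 of the 10 genes. The gap between its TPM and the next highest library, as a share of the group's whole range, was 0.780 for H2-Q6, 0.782 for Tap1 and 0.766 for Psmb8, above the 95% critical value of 0.71 for 5 samples. In all, 10 groups of values were examined this way, namely the 10 genes in tumour-bearing lung, since groups of 3 libraries were left out. For normally distributed values, which TPM need not be, chance alone puts about 5% of groups past that value. The 10 genes share their libraries, so these are not independent signs.

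The tumour-associated change differed between tissues for the 3 immunoproteasome genes. The difference of log2 changes, lung minus muscle, was 2.72 for Psmb8, 2.85 for Psmb9 and 2.24 for Psmb10, by the interaction test in edgeR. Tumour-bearing muscle libraries lay below all muscle controls for these genes, in 3 of 3 libraries, and tumour-bearing lung libraries overlapped the lung controls.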

How the results depend on the processing

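In muscle, where 2196 genes and 5 of the 10 members passed, other settings gave 3657 genes with DESeq2, 415 on log2(TPM + 1), 676 on log2(TPM + 0.1), 4031 with no filter, 3303 with the replicate block and 3459 in 1 fit of all 14 libraries. The members called were 0 on log2(TPM + 1), 1 on log2(TPM + 0.1), 3 with heavy chains summed and 2 in 1 fit of all libraries. Leaving out 1 library gave 106 to 4513 genes and 0 to 3 members. In lung, where 1 member passed, 2 did with limma-voom, on either TPM scale, with the replicate block and in 1 fit. With H2-Q6 and H2-Q7 summed, their 1 summed value passed and was counted for both genes. With heavy chains summed 0 members passed, and 0 to 2 did with 1 library left out. For the interaction, limma-voom gave 1 member in place of 3 and leaving out 1 library gave 1 to 4. The interaction call of Psmb8 was also lost on log2(TPM + 1) and log2(TPM + 0.1), and that of Psmb9 on log2(TPM + 1). The cause of these shifts was not tested.

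On log2(TPM + 1) and log2(TPM + 0.1), signs turned in muscle for H2-D1 (0.072 and 0.075), in lung for B2m (-0.44 on both), H2-D1 (-0.067 on both) and Tap1 (-0.059 and -0.077), and in the interaction for B2m (-0.29 on both), H2-D1 (-0.14 on both) and Tapbp (-0.25 and -0.19). B2m in lung was at -0.019 with the replicate block. With heavy chains summed, H2-Q6 and H2-Q7 took the sum's 0.45 in lung and 0.76 in the interaction. With 1 library left out, signs turned in some fits for muscle B2m (-0.55 to 0.082) and H2-D1 (-0.27 to 0.15), lung B2m (-0.062 to 0.49) and Psmb9 (-0.17 to 0.85), the interaction of H2-Q6 (-1.10 to 0.25), and the lung log2 ratio differences of Psmb8 to Psmb5 (-0.41 to 0.58) and Psmb9 to Psmb6 (-0.74 to 0.11). The muscle ratio differences kept their sign, at -2.54 to -1.82, -3.17 to -2.69 and -3.58 to -2.63 for Psmb8, Psmb9 and Psmb10.

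Whether replicate numbers pair samples was checked on deviations from the group means. In muscle, same-numbered libraries correlated at 0.37, -0.03 and 0.52, and differently numbered ones at -0.56 to 0.10. In lung the values were 0.07, 0.10 and -0.02, beside -0.14 to 0.12 for differently numbered ones. The check showed no pairing in lung. It did not settle the matter in muscle, where replicates 1 and 3 gave the highest values, and the main fits treat libraries as unpaired. The replicate block called 6 members in muscle, with Tapbp at -0.86 (adjusted p = 0.0495, edgeR), and Psmb10 in lung at 0.85 (adjusted p = 0.0413, edgeR). Among single-gene values under the alternatives, 132 in muscle, 178 in lung and 222 in the interaction kept direction and side of the threshold, 41, 1 and 12 lost it with the sign kept, 1, 9 and 2 gained it, and 6, 11 and 14 turned sign. In these counts a summed value stands once for each member in the sum. The median change of all genes moved to -0.25 in muscle with upper-quartile scaling, and to -0.23 in lung and -0.33 in the interaction on log2(TPM + 1). Low counts limit Psmb9, Tap1 and H2-Q7 in muscle.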
